A study of Mus musculus with 14 samples.

Results

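Phase II conjugation enzymes are the 62 genes, of 17552 in the gene table of this series, whose symbols name a glutathione S-transferase (Gst of the classes alpha, kappa, mu, omega, pi, theta and zeta, or microsomal Mgst), a UDP-glucuronosyltransferase (Ugt) or a sulfotransferase (Sult). They were picked by symbol and not by a measured value, although the choice was made with earlier results of these data known. Of these, 24 belonged to the glutathione class, 21 to the glucuronide class and 17 to the sulfate class. Livers came from male Apoe-deficient mice of the C57BL/6 strain. The labels give an age of 8 weeks, which is not taken as the age at collection since the feeding lasted as long or longer. Both groups shared the genotype, the sex and the Western diet. The control group received that diet alone, and the other received it with erythrodiol at 10 mg/kg, a pentacyclic triterpene alcohol found in olives. The labels give 8 weeks of feeding, whereas the study's text gives a longer period. Each group had 7 libraries of polyadenylated RNA, and each library was a pool of RNA from a few mice.

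Phase II enzymes attach a polar group to drugs, dietary compounds, hormones, bile acids and bilirubin, which makes them easier to excrete in bile or urine. Glutathione S-transferases join the tripeptide glutathione to electrophiles, UDP-glucuronosyltransferases transfer glucuronic acid from UDP-glucuronate, and sulfotransferases transfer a sulfonate group from the donor PAPS. The liver is a main site of all of them, and many of the genes lie in clusters of close relatives.

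The gene table held 1 value per gene and group, an expected count summed over the 7 libraries of the group. No value of a single library entered any comparison of genes, so the spread between pools is unknown, no test between the groups could be made, and no p-value is given. The 95% intervals below are exact binomial intervals that cover counting error only. The sums over all genes were 122889032 counts for control and 124686047 for erythrodiol. Clean reads per library were between 34856340 and 55244294 in control and between 47669656 and 48058606 in erythrodiol. A single library gave between 9.12% and 17.3% of its group's mapped read pairs in control, and between 13.9% and 14.6% in erythrodiol. Apoe itself, whose deficiency both groups carry, was counted at 76.5 and 66.5 CPM (counts per 1000000 of the group's total) in control and erythrodiol, and which exons these counts cover was not examined. In whole liver, fewer cells of a type and less RNA per cell cannot be told apart.

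Each gene's erythrodiol sum was divided by its control sum after scaling both by these totals, and ratios are given as log2 values in which 0 means no difference. Of the 13291 genes with at least 100 counts in both groups together, the median was 0.16, and among 20 classes of gene length it ran from -0.30 in the shortest genes to 0.35 in the longest. Each ratio is therefore also given relative to the median of genes of like length, and directions were checked on a further scale, relative to the median of all genes. In total, 46 of the 62 members passed the minimum of 100 counts. Of these, 17 were higher with erythrodiol on all 3 scales, 20 were lower on all 3, and the direction of 9 depended on the scale. Over all genes, 42.5% were higher and 27.1% lower on all 3 scales, and 71.2% were higher by column sums alone.

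**Figure D1:**
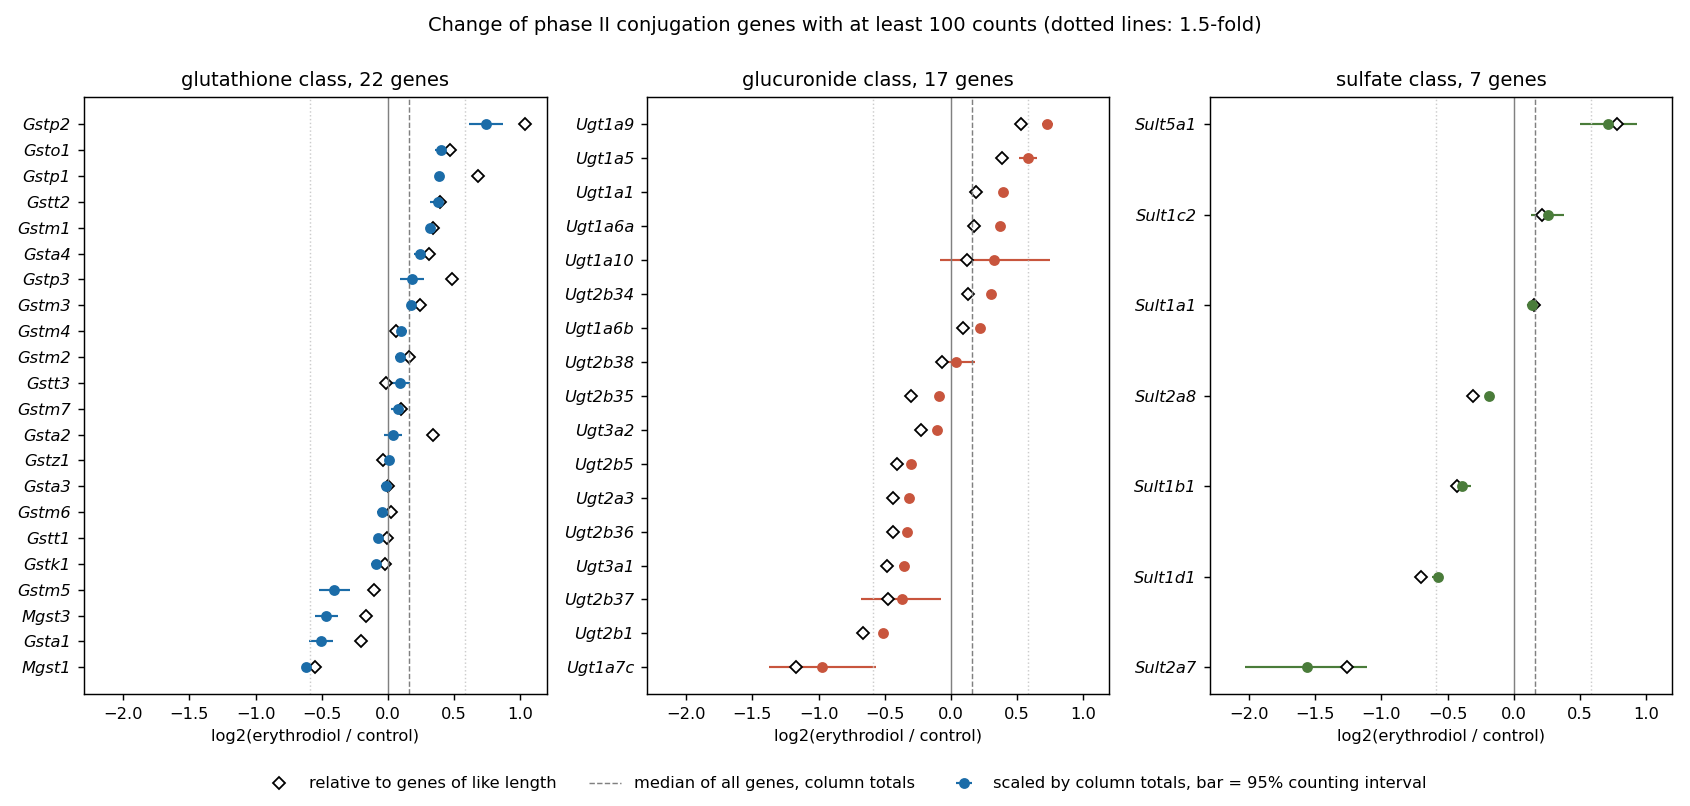
Log2 ratio of erythrodiol to control (horizontal axis) for the 46 members with at least 100 counts, with 22 genes in the glutathione panel, 17 in the glucuronide panel and 7 in the sulfate panel. Filled points are scaled by the sums over all genes, bars are 95% counting intervals, diamonds are relative to genes of like length, the dashed line is the median of all genes at 0.16 and dotted lines mark 1.5-fold. Most members lie within 1.5-fold, Sult2a7 lies lowest at -1.56, and the Ugt1a members other than Ugt1a7c lie above the Ugt2b members other than Ugt2b34.

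Some relatives are so alike that reads cannot always be assigned to 1 of them, and a pair of pi-class genes is shown for that reason. The 8 Ugt1a genes at chr1:88055411-88220002 (GRCm38) have separate first exons and splice onto the same later exons. The lines here give the first 90 coding bases of Gstp1 (chr19:4037344-4037863) and of Gstp2 (chr19:4041638-4042165), both on the minus strand over exons 1 to 3, with the 6 bases of Gstp2 that differ in capitals. Over all 630 coding bases the pair was 98.1% identical.
Gstp1: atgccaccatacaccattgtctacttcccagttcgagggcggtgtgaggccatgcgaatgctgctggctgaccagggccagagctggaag
Gstp2: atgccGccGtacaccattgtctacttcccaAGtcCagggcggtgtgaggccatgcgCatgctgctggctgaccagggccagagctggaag

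Of the 62 members, 26 shared a run of 100 bases with another member in their GENCODE transcripts. For the Ugt1a genes, between 52.3% and 95.7% of all such runs were shared, and for Gstp1 and Gstp2 38.4% and 35.9%. Ugt2b5 shared 24.7% of its runs, all with Ugt2b38, and Gsta1 shared 19.8%, all with Gsta2. Counts of these genes rest on how the authors' software divided shared reads, and the split between such neighbours is uncertain. Mgst1, Gstp3, Ugt2b1, Sult1d1, Sult2a7, Sult2a8 and Sult5a1 shared no run with another member.

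By summed counts the glutathione class was the largest, and erythrodiol and control differed little in it. Its 24 genes held 1332937 counts in control and 1323237 in erythrodiol, a log2 ratio of -0.031 (95% interval -0.035 to -0.028). The glucuronide class held 665166 counts in control and 627030.0 in erythrodiol, a log2 ratio of -0.11 (-0.11 to -0.10). The sulfate class held 129601 and 117702 counts, a log2 ratio of -0.16 (-0.17 to -0.15). All 3 sums were lower with erythrodiol, and relative to the median of all genes they stood at -0.19, -0.27 and -0.32. These sums follow the few most abundant genes of each class.

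The median gene of a class gave another view. The median log2 ratio of the 22 glutathione genes that passed was 0.09, or 0.08 relative to genes of like length, but it turned to -0.08 relative to the median of all genes. The 17 glucuronide genes had a median of -0.09, or -0.23 relative to like length. The 7 sulfate genes had a median of -0.19, or -0.31 relative to like length. Glutathione genes are short, with a median length of 1087.5 bases against 2560 bases for the glucuronide genes that passed. The medians of these classes lay farther apart after the correction for length than before it.

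**Figure D2:**
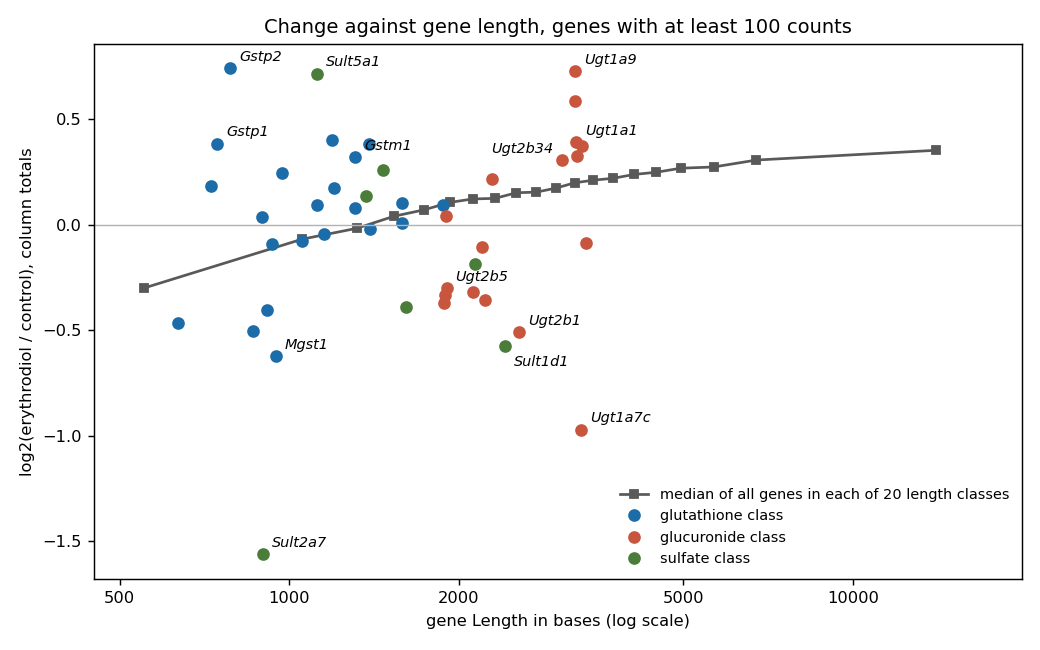
Log2 ratio of erythrodiol to control after scaling to all counts (vertical axis), against gene length in bases (horizontal axis, log scale) for the 46 members, with squares for the median of all genes in each of 20 length classes, drawn at the geometric middle of the class. The medians climb from -0.30 to 0.35 with length, so short genes such as Gstp1 and Gstp2 lie farther above the medians than above 0, and Ugt2b1 and Sult1d1 lie farther below them than below 0.

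Past a limit of 1.5-fold, 3 of 46 members were higher with erythrodiol (6.52%, against 2.55% of all genes): Gstp2, Sult5a1 and Ugt1a9. Another 3 were lower (6.52%, against 3.14% of all genes): Mgst1, Sult2a7 and Ugt1a7c. Relative to genes of like length, Gstp1, Gstp2 and Sult5a1 were past the limit upwards (6.52%, against 1.06% of all genes). Downwards, Sult1d1, Sult2a7, Ugt1a7c and Ugt2b1 were past it on that scale (8.70%, against 3.57%). Relative to the median of all genes, 0 members were past the limit upwards (against 0.865%) and 7 downwards (15.2%, against 6.16%). At 2-fold by column sums Sult2a7 alone was lower (2.17%, against 0.549% of all genes), and 0 members were higher (against 0.218%). These shares rest on very few genes, and several of them share reads with a relative.

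Within the glutathione class, the leading genes went in opposite directions and their sum differed little. Mgst1 (chr6:138140527-138156755) encodes a membrane-bound transferase of the endoplasmic reticulum and outer mitochondrial membrane that also reduces lipid peroxides. It had the highest level per base of length of all members and held 483806 counts in control and 319152 in erythrodiol. This was 1.54-fold lower, a log2 ratio of -0.62 (-0.63 to -0.61), or -0.55 relative to genes of like length. Gstm1, the main mu-class enzyme of mouse liver (chr3:108012250-108017973), held 276394 counts in control and 350388 in erythrodiol. Its log2 ratio was 0.32 (0.31 to 0.33), or 0.34 relative to like length. Gstp1, the pi-class enzyme (chr19:4035411-4037912), held 221389.8 and 293236 counts, a log2 ratio of 0.38 (0.38 to 0.39), or 0.68 relative to like length. Mgst1 was lower, and Gstm1 and Gstp1 were higher, on all 3 scales.

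As shares of the class, Mgst1 went from 36.3% of its counts in control to 24.1% in erythrodiol, Gstm1 from 20.7% to 26.5% and Gstp1 from 16.6% to 22.2%. The 3 genes together stood at 73.6% in control and 72.8% in erythrodiol. Without Mgst1 the log2 ratio of the class sum was 0.22 instead of -0.03. Relative to the median of all genes it was 0.06 without Mgst1, and the median gene then stood at -0.07. Per base of length, scaled to 1000000 over all genes, Mgst1 stood at 6845 in control and 4946 in erythrodiol, and Gstp1 at 3979 and 5772. By this level the leading glutathione gene was Mgst1 in control and Gstp1 in erythrodiol, whereas by counts it was Mgst1 in control and Gstm1 in erythrodiol.

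**Figure D3:**
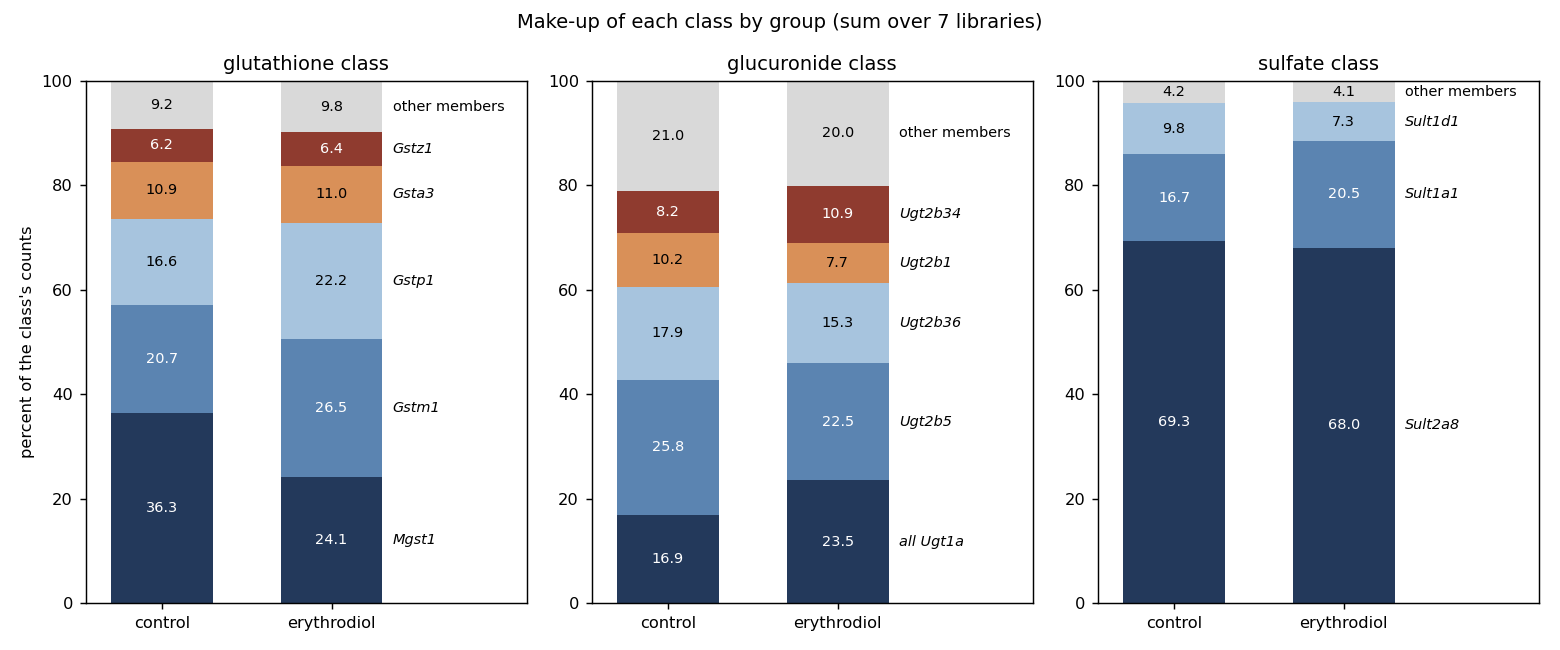
Percent of each class's summed counts (vertical axis) held by its leading genes in the control and erythrodiol groups, each bar being the sum over 7 libraries with no error between libraries available. Mgst1 takes 36.3% of the glutathione class in control and 24.1% in erythrodiol, the Ugt1a genes take 16.9% and 23.5% of the glucuronide class, and Sult2a8 takes 69.3% and 68.0% of the sulfate class.

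All 3 pi-class genes were higher with erythrodiol on all 3 scales, as were 42.5% of all genes. Gstp2 held 831 counts in control and 1409.8 in erythrodiol, 1.67-fold higher, with a log2 ratio of 0.74 (0.62 to 0.87) or 1.04 relative to like length. Gstp1 and Gstp2 share reads, so a part of the counts of the less abundant Gstp2 could belong to Gstp1, and this was not tested. Gstp3, which shares no 100-base run with them, held 1744 and 2008 counts, a log2 ratio of 0.18 (0.09 to 0.28) or 0.48 relative to like length. Pi-class transferases are known to be more abundant in the liver of male than of female mice.

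The mu class, which handles many epoxides, owed its sum to Gstm1. Its 7 genes had a summed log2 ratio of 0.29 but a median of 0.10, and 5 were higher by column sums (against 71.2% of all genes), 6 relative to like length and 2 relative to the median of all genes. The lowest was Gstm5, with 1380.0 counts in control and 1057 in erythrodiol, a log2 ratio of -0.41 (-0.52 to -0.29) or -0.11 relative to like length. Gstm3 stood at 0.17 and 0.24 on these scales.

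The alpha class, which conjugates products of lipid peroxidation and reduces peroxides, split by gene. Gsta3, which detoxifies aflatoxin in mice, held 145503 and 145834 counts a log2 ratio of -0.018, or -0.001 relative to like length. Gsta4, which is specialised in 4-hydroxynonenal, held 6969 and 8390.0 counts, a log2 ratio of 0.25 (0.20 to 0.29) or 0.31 relative to like length. Gsta1 held 2533 and 1811 counts, a log2 ratio of -0.50 (-0.59 to -0.42) or -0.21 relative to like length. Its relative Gsta2, with 3477 and 3623 counts, stood at 0.04, at 0.34 relative to like length and at -0.12 relative to the median of all genes.

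Among the remaining glutathione genes, Gsto1, an omega-class enzyme that reduces dehydroascorbate, held 8435 counts in control and 11297 in erythrodiol, a log2 ratio of 0.40 (0.36 to 0.44) or 0.47 relative to like length. Gstt2 of the theta class held 4152 and 5485 counts, a log2 ratio of 0.38 (0.32 to 0.44) or 0.40. Mgst3, a microsomal enzyme of leukotriene and peroxide metabolism, held 2614 and 1920.0 counts, a log2 ratio of -0.47 (-0.55 to -0.38) or -0.17. Gstz1, the maleylacetoacetate isomerase of tyrosine breakdown, held 83180.4 and 84764.8 counts, at 0.01 and -0.03, and the kappa-class Gstk1 of mitochondria and peroxisomes stood at -0.09 and -0.02. Gsto2 and Mgst2 had at most 8 counts in a group.

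In the glucuronide class the 2 large clusters stood apart. The Ugt1a genes hold the enzyme of bilirubin glucuronidation, Ugt1a1, and enzymes for phenols, whereas the Ugt2 genes are best known for steroids, bile acids and fatty acids. The Ugt1a genes together held 112355 counts in control and 147085 in erythrodiol, a log2 ratio of 0.37 (0.36 to 0.38). The Ugt2 genes held 485179 and 418675 counts, a log2 ratio of -0.23 (-0.24 to -0.23). Ugt1a genes made up 16.9% of the class in control and 23.5% in erythrodiol, and Ugt2 genes 72.9% and 66.8%. Since reads shared among the Ugt1a genes stay within the cluster, its sum does not depend on how they were divided.

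Of the 7 Ugt1a genes that passed, 6 were higher with erythrodiol on all 3 scales, against 42.5% of all genes. Ugt1a1 held 55175 counts in control and 73434 in erythrodiol, a log2 ratio of 0.39 (0.38 to 0.41) or 0.19 relative to like length. Ugt1a9 held 7047 and 11854 counts, 1.66-fold higher, with a log2 ratio of 0.73 (0.69 to 0.77) or 0.53. Ugt1a5 held 2792 and 4249.5 counts and lay just inside the 1.5-fold limit at 0.58 (0.52 to 0.65), or 0.39. The abundant Ugt1a6b and Ugt1a6a stood at 0.22 and 0.37, or 0.09 and 0.17 relative to like length. Ugt1a10, with 90.4 and 115 counts, stood at 0.32 (-0.08 to 0.75), an interval that includes 0, or 0.13 relative to like length. The exception was Ugt1a7c, with 154 counts in control and 79.7 in erythrodiol, a log2 ratio of -0.97 (-1.37 to -0.57) or -1.17. It holds few counts, and 52.7% of its 100-base runs are shared with the other Ugt1a genes, so its value is uncertain, as is that of Ugt1a10.

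In the Ugt2 family 6 of 8 genes that passed were lower by column sums, against 3829 of 13291 over all genes. Relative to like length 7 of 8 were lower, against 6639 of 13291. Ugt2b5, the most abundant, held 171573 counts in control and 141238 in erythrodiol, a log2 ratio of -0.30 (-0.31 to -0.29) or -0.41 relative to like length. Ugt2b36 held 118981 and 96024 counts, at -0.33 (-0.34 to -0.32) or -0.44. Ugt2b1 held 68007 and 48467 counts, at -0.51 (-0.53 to -0.49) or -0.66. These 3 leading genes took 53.9% of the class in control and 45.6% in erythrodiol. Ugt2a3 and Ugt2b37 were also lower, at -0.32 and -0.37, or -0.44 and -0.48 relative to like length. Ugt2b34, at the edge of the cluster, went the other way, with 54692 and 68545 counts and a log2 ratio of 0.30 (0.29 to 0.32), or 0.13 relative to like length and 0.14 relative to the median of all genes.

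The median of the Ugt1a genes exceeded that of the Ugt2 genes by 0.68 on the log2 scale, and by 0.60 relative to like length. That difference was chosen for description after the values were seen. Ugt3a1 and Ugt3a2, related enzymes that use other sugar donors, stood at -0.36 and -0.10, or at -0.48 and -0.23 relative to like length. Ugt8a, which makes galactosylceramide for myelin, had 25 and 14 counts, and Ugt2a2 was at 0 counts in both groups.

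**Figure D4:**
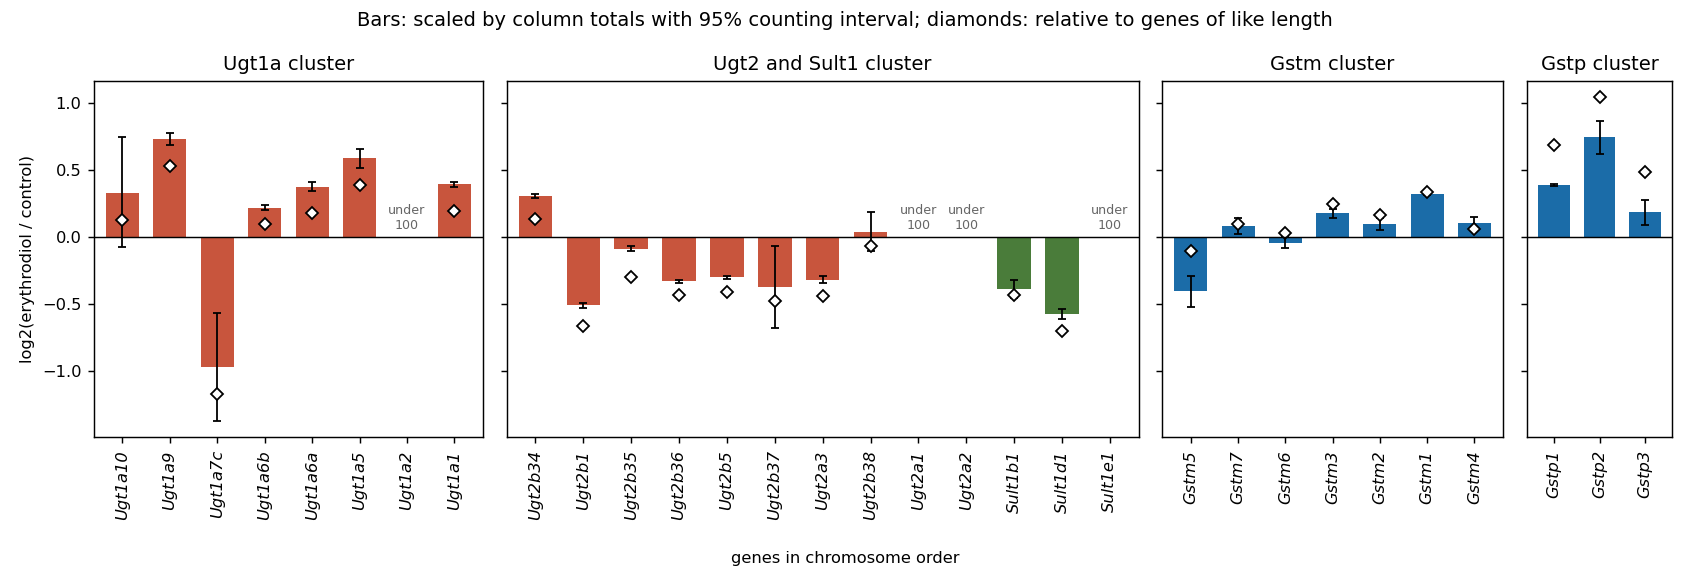
Log2 ratio of erythrodiol to control (vertical axis) for the genes of 4 clusters in chromosome order, with bars scaled by the sums over all genes, black lines for 95% counting intervals, diamonds for values set against like length, and members under 100 counts marked. All Ugt1a bars but that of Ugt1a7c point up, 8 of the 10 bars of the Ugt2 and Sult1 cluster point down, and the 3 Gstp bars point up.

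The lower values continued past the Ugt2 genes into neighbouring sulfotransferases. The stretch chr5:86889770-87591611 holds 13 members, from Ugt2b34 to Sult1e1, of which 10 passed. These 10 include the Ugt2 genes counted above. By column sums 8 of the 10 were lower (against 3829 of 13291 over all genes), with a median of -0.32. Relative to like length 9 of 10 were lower (against 6639 of 13291), with a median of -0.43. Sult1d1, which sulfonates catecholamines, held 12659 counts in control and 8619 in erythrodiol, a log2 ratio of -0.58 (-0.61 to -0.54) or -0.70 relative to like length. Sult1b1, which sulfonates phenols and thyroid hormones, held 4024 and 3116 counts, at -0.39 (-0.46 to -0.32) or -0.43. The third sulfotransferase there, the oestrogen enzyme Sult1e1, had 8 and 7 counts.

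Outside that cluster the sulfotransferases of the first family did not go the same way. Sult1a1, the main phenol sulfotransferase, held 21699.6 counts in control and 24178.6 in erythrodiol, a log2 ratio of 0.14 (0.11 to 0.16) or 0.15 relative to like length, and -0.03 relative to the median of all genes. Sult1c2 held 943 and 1144 counts, at 0.26 (0.13 to 0.38) or 0.22. Sult5a1 (chr8:123142843-123158914) held 285 and 475 counts, 1.64-fold higher, at 0.72 (0.50 to 0.93) or 0.78.

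The Sult2a genes on chr7:13623967-14493023 sulfonate bile acids and hydroxysteroids, and several are known to be expressed mainly in the liver of female mice. One of them, Sult2a8, a bile acid sulfotransferase, made up 69.3% of the sulfate class in control and 68.0% in erythrodiol. It held 89761 and 80080.0 counts, a log2 ratio of -0.19 (-0.20 to -0.17) or -0.31 relative to like length. Its neighbour Sult2a7 held 160.0 counts in control and 55 in erythrodiol, 2.95-fold lower, at -1.56 (-2.03 to -1.11) or -1.26. The other members were near the limit of detection. Sult2a1 held 16.2 counts in control and 1 in erythrodiol, a log2 ratio of -4.04 with a counting interval from -9.41 to -1.33. Sult2a2 held 10.8 counts in control and 0 in erythrodiol, which is at least 3.64-fold lower when the erythrodiol sum is set to 3 counts, and at least 2.55-fold lower by the 95% counting interval of the ratio. Sult2a3, Sult2a4 and Sult2a5 had at most 1.01 counts in either group. Leaving out Sult2a8, the Sult2a genes held 189 counts in control and 57 in erythrodiol, a log2 ratio of -1.75 (-2.20 to -1.32). With sums of 7 pools, a single pool could supply most of such low counts, and this could not be checked from the sums. The study's RT-qPCR of individual mice also covered Sult2a2, whose mean was lower with erythrodiol without a significant change.

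In all, 16 members stayed below 100 counts, of which 5 had at most 3 counts in either group and 5 were at 0 in a group. The counting interval, which covers counting error only, left out a ratio of 1 for 4 of the 16. The share of all genes under 100 counts with such an interval was not computed, so this count has no reference. Ugt1a2 with 36.0 and 61.6 counts and Ugt2a1 with 28 and 54 counts were higher, and Sult2a1 and Sult2a2 were lower. Sult2b1, Sult3a1, Sult4a1 and Sult6b1 had at most 13 counts in a group.

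Promoter sequences are shown for the genes on which the patterns above turn, as 250 bases upstream of the start in RefSeq (GRCm38.p6). Entries were matched by gene number for 54 of the 62 members. The letters of 5 motifs were searched on both strands. Matches are in capitals: TGACNNNGC for the antioxidant response element core bound by NRF2, GCGTG for the xenobiotic response element core bound by the AHR, TTCNNNGAA for STAT factors, AGGTCA for nuclear receptors and GTTAAT for HNF1 factors, the last 2 being half-sites. No matches overlapped in the sequences shown. They lie at chr19:4037913-4038162 and chr19:4042222-4042471 on the minus strand, chr6:138140277-138140526 on the plus strand (the first of its 2 entries), chr1:88211709-88211958 and chr1:88070529-88070778 on the plus strand, and chr5:86926504-86926753 and chr5:87140341-87140590 on the minus strand.
Gstp1: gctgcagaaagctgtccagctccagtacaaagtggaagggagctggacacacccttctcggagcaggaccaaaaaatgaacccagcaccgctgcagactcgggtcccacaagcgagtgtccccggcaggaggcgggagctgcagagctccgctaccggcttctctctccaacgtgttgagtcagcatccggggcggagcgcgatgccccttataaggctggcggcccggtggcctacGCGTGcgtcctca
Gstp2: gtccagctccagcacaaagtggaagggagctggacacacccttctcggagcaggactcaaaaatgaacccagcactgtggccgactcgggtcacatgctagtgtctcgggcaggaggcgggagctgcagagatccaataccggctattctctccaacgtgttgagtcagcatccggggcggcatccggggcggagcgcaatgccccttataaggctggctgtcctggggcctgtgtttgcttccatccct
Mgst1: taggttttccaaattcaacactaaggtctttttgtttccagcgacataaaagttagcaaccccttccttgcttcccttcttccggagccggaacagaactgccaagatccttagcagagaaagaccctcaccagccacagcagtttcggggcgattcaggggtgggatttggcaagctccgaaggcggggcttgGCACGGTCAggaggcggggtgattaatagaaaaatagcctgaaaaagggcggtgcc
Ugt1a1: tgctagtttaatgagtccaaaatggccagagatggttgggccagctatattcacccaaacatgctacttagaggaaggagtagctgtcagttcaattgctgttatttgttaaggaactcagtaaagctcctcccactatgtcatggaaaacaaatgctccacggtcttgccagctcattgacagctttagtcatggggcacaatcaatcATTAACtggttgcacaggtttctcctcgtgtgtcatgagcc
Ugt1a9: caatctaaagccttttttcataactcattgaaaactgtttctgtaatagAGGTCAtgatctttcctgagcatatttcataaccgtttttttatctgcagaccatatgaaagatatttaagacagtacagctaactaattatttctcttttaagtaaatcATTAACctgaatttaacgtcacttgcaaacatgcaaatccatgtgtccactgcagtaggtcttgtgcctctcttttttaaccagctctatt
Ugt2b1: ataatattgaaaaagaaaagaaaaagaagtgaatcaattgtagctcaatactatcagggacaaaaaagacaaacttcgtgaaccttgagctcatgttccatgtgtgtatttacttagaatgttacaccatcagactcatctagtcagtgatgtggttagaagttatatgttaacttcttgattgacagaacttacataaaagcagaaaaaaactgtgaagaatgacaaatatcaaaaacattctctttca
Ugt2b5: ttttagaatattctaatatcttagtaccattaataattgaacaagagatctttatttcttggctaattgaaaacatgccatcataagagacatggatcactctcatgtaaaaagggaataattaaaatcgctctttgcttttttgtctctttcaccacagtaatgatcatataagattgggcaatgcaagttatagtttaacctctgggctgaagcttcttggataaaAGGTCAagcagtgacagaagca

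Gstp1 and Gstp2, which were both higher, were 78.1% identical over these promoters in a global alignment. The Mgst1 promoter held the antioxidant core 56 bases before the start, and that of Gstp1 the xenobiotic core 13 bases before it. Both Gstp promoters hold the letters tgagtcagc, which the pattern TGACNNNGC does not match. Other forms of the antioxidant element were not searched, so the lack of a match does not mean that no such element is present. Both Ugt1a promoters held the HNF1 half-site, 41 bases before the start in Ugt1a1 and 91 in Ugt1a9. Ugt1a9 and Ugt2b5, which went in opposite directions, both held the nuclear receptor half-site.

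Over the 54 members with an entry, the antioxidant core was found in 4 genes (7.41%, against 11.5% of the 27025 genes with promoter entries), all of the glutathione class: Gsta3, Gstm5, Gstm7 and Mgst1. The xenobiotic core was found in 11 members (20.4%, against 30.9%) and the STAT letters in 4 (7.41%, against 8.13%). The nuclear receptor half-site was found in 11 members (20.4%, against 15.8%), 7 of them among the 19 glucuronide genes. The HNF1 half-site was found in 12 members (22.2%, against 7.49%), of which 6 were glucuronide and 5 were sulfate genes. None of these shares was tested, and a match describes letters, not binding.

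Other genes of conjugation were described from lists, by the median log2 ratio of those that passed the minimum. The 8 genes listed for glutathione supply and breakdown had a median of 0.19, or 0.04 relative to like length. Gclc and Gclm, the subunits of the rate-limiting enzyme of glutathione synthesis, stood at 0.34 and 0.34, or 0.14 and 0.22 relative to like length. The highest was Chac1, which breaks glutathione down and does not supply it, at 0.37 or 0.33. Cth, which makes cysteine, stood at -0.39, or -0.46. The lowest was Slc7a11, with 120 counts in control and 91.5 in erythrodiol, at -0.41 or -0.76. The 5 genes of UDP-glucuronate had a median of 0.03, or -0.12, and the 7 genes of the sulfate donor 0.20, or 0.08. Papss2, a PAPS synthase, was the highest of the latter at 0.54, or 0.32 relative to like length.

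A list of other conjugating enzymes, of which 14 genes passed, had a median of -0.13, or -0.19 relative to like length. It also held Ephx1, Ephx2 and Nqo1, which are not conjugating enzymes, and Ephx1 was its highest gene at 0.45, or 0.38. Nnmt, which methylates nicotinamide, held 3808 and 2281 counts, at -0.76, and Inmt, which methylates indoles and thioethers, held 52149 and 33010.0 counts, at -0.68. These were the only 2 genes of this list past 1.5-fold. The 7 transporters of conjugates had a median of -0.06, or -0.34 relative to like length. Abcc2, the canalicular exporter of glucuronides and glutathione conjugates, stood at 0.47, or 0.20, and Slco1b2, an uptake carrier, at -0.28, or -0.48. All 14 regulators of these enzymes were higher by column sums, as were 71.2% of all genes, with a median of 0.30, but the median was 0.07 relative to like length, where Keap1, Nr1i2, Hnf4a and Cux2 were below 0, and Nr1i2 and Nr1h4 were below the median of all genes. Nfe2l2, which encodes NRF2, stood at 0.29 and 0.14 on these scales.

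Because several members differ between the sexes, genes known for such a bias were set beside them. Of 13 female-biased genes that passed, Cyp2b13, Cyp2b9 and Hao2 were lower, at -3.66, -2.00 and -1.94, whereas Cyp2a4 and Cyp17a1 were higher, at 1.35 and 1.14, and the list's median was 0.27, or -0.001 relative to like length. Of 16 male-biased genes that passed, the 5 past 1.5-fold were all Mup genes, which were lower, between -0.62 and -1.50, and the median was 0.01, or -0.09. Neither list therefore went 1 way.

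Hepatocyte markers, the cells that express most members, held 107041 CPM in control and 106394 CPM in erythrodiol, with a median log2 ratio of 0.15 over 7 genes. The medians of periportal and pericentral markers were 0.34 and 0.30, or 0.24 and 0.15 relative to like length. Markers of Kupffer cells were lower in 6 of 6 genes, summing to 869 and 535 CPM, with a median of -0.67. Bile duct markers were lower in 6 of 6 that passed, summing to 118 and 79.9 CPM, with a median of -0.56, and 3 neutrophil markers that passed were lower, with a median of -1.19. Relative to like length the Kupffer, bile duct and neutrophil medians were -0.80, -0.57 and -0.89. Erythroid markers had a median of -0.33, stellate 0.04 and endothelial 0.11, but -0.06, -0.24 and -0.13 relative to like length. The median of pancreatic acinar markers was -1.31, or -1.18, over only 2 genes, Amy2a5 and Cela2a. Of the acinar markers under 100 counts, Ctrb1 went the other way, with 8 counts in control and 42 in erythrodiol, as did Cpa1 with 2 and 15. Their part in the lower members such as Mgst1 was not tested.

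In the authors' assembly 13 members had 24 new coding isoforms in all, or 21.0% of members against 28.5% of the genes of the table. The most were 6 for Ugt3a1, 4 for Gstm4 and 3 for Gstm6. Of the 16 genes with a filtered splicing event between the groups, 0 were members.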

How the data were processed

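Liver RNA of 14 pooled libraries was sequenced by the authors, with groups taken from the labels. The tools named for the series include HISAT, StringTie, Cufflinks, Bowtie2, RSEM and GATK, with versions not given in the sources used here. The gene table deposited by the authors gives 1 expected count per group, the unnormalized sum of 7 libraries, and the gene length. The deposited table also holds the authors' log2 ratio, p-value and q-value per gene, which were not used. For each library the authors deposited read counts and mapping rates in percent.

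Ratios were scaled by the column totals. Genes under 100 counts in both groups together were left out of medians. The length reference was the median in each of 20 classes of equal size. Intervals are exact Clopper-Pearson at 95%. For a bound on a fold, 3 counts stood in for 0. Count models such as those of replicated designs could not be fitted to 1 value per group. Counts were not rounded for the ratios, but were rounded to whole counts for the intervals. Genes of the text are the 10 of highest and 10 of lowest ratio with 100 counts, the 3 of highest level per length in each class, all Sult2a genes, those counted in 1 group alone, and, outside that rule, genes singled out after their values were seen. The members and lists were chosen with earlier results of these data known. Positions came from RefSeq GRCm38.p6 by gene number, and transcripts from GENCODE M21. The computation was tested on simulated data with Python 3.11.15, pandas 2.3.3, numpy 2.4.6 and scipy 1.17.1.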

Additional observations from a re-analysis of the deposited data

Results flagged for a closer look

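One library stood apart from its group. In control replicate 3, 64.33% of reads mapped to genes, the lowest of the 7 control libraries, and its gap to the next was 0.588 of the group's range. Chance alone marks about 1 in 20 groups in this way. Its counts could not be taken out of the control sums of the conjugation genes, which were deposited for the group as a whole.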

How the results depend on the processing

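No paired analysis was possible because gene counts were deposited as 1 sum per group, and for the same reason no library could be left out and no count model was run. Relative to the median of all genes, the log2 ratios of the class sums were -0.19 for glutathione, -0.27 for glucuronide and -0.32 for sulfate genes, and with column totals taken without the 20 most abundant genes they were -0.12, -0.19 and -0.24. The glutathione sum by column totals turned to 0.22 without Mgst1, so its direction rests on that gene. For all transferases other than the microsomal ones, a choice made after seeing the data, it was also 0.22. Relative to the median of all genes both of these sums stood at 0.06. The glucuronide sum was -0.044 without Ugt2b5 and the sulfate sum -0.10 without Sult2a8.

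Class medians relative to the median of all genes were -0.075 for glutathione, -0.25 for glucuronide and -0.35 for sulfate genes. The glucuronide median was -0.23 relative to genes of like length, -0.21 relative to the 500 genes nearest in length and -0.23 relative to genes of like length and count. The sulfate median was -0.31 under each of these references, -0.30 with a minimum of 10 counts and -0.39 with no minimum and 0.5 counts added.

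Members higher past the limit numbered 3, but 0 at 2-fold, 0 relative to the median of all genes and 6 with a minimum of 10 counts. Members lower numbered 3, but 1 at 2-fold, 7 relative to the median of all genes, 7 with a minimum of 10 counts and 1 with a minimum of 1000. The whole counting interval lay past the limit for 2 members in each direction. The shares of all genes at minimums of 10 and 1000 counts, and by whole intervals, were not computed. Those counts of members therefore cannot be set against all genes. The cause of these shifts was not tested. The excess of the Ugt1a over the Ugt2 median ranged from 0.60 to 0.69 under the 6 alternatives tried, all chosen after seeing the data. Depth limits the Sult2a genes other than Sult2a8, and Ugt1a7c and Ugt1a10.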
